A study of Mus musculus with 6 samples.

Results

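The genes described here are 7 subunits of the GABA-A receptor, Gabra2, Gabra3, Gabra4, Gabra5, Gabrb1, Gabrb2 and Gabrg3, whose transcripts were counted in whole cortex of mouse embryos (bulk RNA sequencing). They were taken by name from 55401 gene rows through their GENCODE M21 identifiers, and they are 7 of the 19 annotated subunit genes of this receptor. The Csmd3 knockout group held 3 libraries of Csmd3-/- cortex and the wild-type (WT) group 3 libraries of WT cortex, all of the C57BL/6 strain at embryonic day 18 (E18). Embryos came from matings of Csmd3 heterozygous mice, so the WT samples come from the same kind of cross. No agent was given, the knockout is labelled Csmd3-/- without a cell type restriction, and the sources used here do not give the removed part of the gene, the number of embryos per library or their sex. The labels do not say that replicates are separate embryos, so the p-values measure the spread between these libraries, which may be partly technical.

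GABA-A receptors are rings of subunits around a chloride channel that opens when GABA, the main inhibitory transmitter of the adult brain, binds between an alpha and a beta subunit. Gamma subunits join them in most synaptic receptors and form part of the benzodiazepine site. The choice of alpha subunit sets where the receptor sits and how it responds: Gabra2 is common at synapses of the forebrain, Gabra3 is prominent in the immature cortex, and Gabra4 and Gabra5 are known for receptors outside synapses that carry tonic currents. In immature neurons chloride is high and GABA can depolarise, and GABA acts there on migration and growth as well as on signalling.

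The 7 genes lie in 4 clusters of subunit genes on mouse chromosomes 5, 7, 11 and X (mm10 coordinates, counted from 1). On chromosome 5 are Gabra2 (ENSMUSG00000000560.9, 70957597 to 71095849, minus strand), Gabra4 (ENSMUSG00000029211.11, 71569749 to 71658308, minus strand) and Gabrb1 (ENSMUSG00000029212.11, 71658113 to 72149037, plus strand). Gabra4 and Gabrb1 are arranged head to head, with their annotated starts 195 bases apart and 46 bases of shared exon. On chromosome 7 are Gabrg3 (ENSMUSG00000055026.13, 56716465 to 57387188, minus strand) and Gabra5 (ENSMUSG00000055078.7, 57407672 to 57510059, minus strand). Gabrb2 (ENSMUSG00000007653.12, 42419757 to 42629028, plus strand) is on chromosome 11, and Gabra3 (ENSMUSG00000031343.13, 72432681 to 72656848, minus strand) is on chromosome X. All 7 are protein-coding.

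The promoter windows of the 3 genes that passed the test, and of Gabra4 beside its neighbour Gabrb1, are shown because these genes carry the calls or, for Gabra4, start next to one that does. Each runs 5′ to 3′ on the strand of the gene from 250 bases before to 50 bases after a RefSeq start (build GRCm38.p6), and capitals mark a TATA box motif (TATAAA) or a GC box motif (GGGCGG) on either strand. The windows are Gabra5 at chr7:57510010-57510309 (minus), Gabrb1 at chr5:71657671-71657970 (plus), Gabra4 at chr5:71658259-71658558 (minus) and Gabra3 at chrX:72656870-72657169 (minus).
Gabra5: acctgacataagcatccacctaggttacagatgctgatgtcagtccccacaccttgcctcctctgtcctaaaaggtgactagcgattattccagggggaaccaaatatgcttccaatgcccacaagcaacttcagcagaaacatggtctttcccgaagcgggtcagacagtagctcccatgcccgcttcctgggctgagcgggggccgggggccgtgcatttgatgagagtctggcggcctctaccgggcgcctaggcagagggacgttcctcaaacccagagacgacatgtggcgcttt
Gabrb1: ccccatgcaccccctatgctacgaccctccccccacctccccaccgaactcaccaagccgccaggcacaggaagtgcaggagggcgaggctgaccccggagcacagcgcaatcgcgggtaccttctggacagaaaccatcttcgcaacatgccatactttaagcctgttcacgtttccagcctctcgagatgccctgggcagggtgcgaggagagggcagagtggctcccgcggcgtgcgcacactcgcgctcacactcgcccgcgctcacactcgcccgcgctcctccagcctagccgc
Gabra4: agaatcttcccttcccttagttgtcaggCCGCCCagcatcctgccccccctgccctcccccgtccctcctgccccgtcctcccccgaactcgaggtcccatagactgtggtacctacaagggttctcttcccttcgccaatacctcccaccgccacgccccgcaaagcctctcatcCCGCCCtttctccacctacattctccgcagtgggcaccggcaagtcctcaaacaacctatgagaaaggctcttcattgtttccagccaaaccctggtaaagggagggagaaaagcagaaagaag
Gabra3: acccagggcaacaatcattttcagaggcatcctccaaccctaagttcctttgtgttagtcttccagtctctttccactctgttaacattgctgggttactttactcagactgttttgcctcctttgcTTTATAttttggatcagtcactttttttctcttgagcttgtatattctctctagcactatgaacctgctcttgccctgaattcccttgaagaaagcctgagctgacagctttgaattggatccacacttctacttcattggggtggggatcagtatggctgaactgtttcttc

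All 7 genes had a RefSeq window, 11 windows in all, since Gabra3, Gabrb1 and Gabrb2 have several starts. The Gabra3 windows overlap and held the same single TATA box motif, on the strand opposite to the gene, and no CG dinucleotide. The other windows held 9 to 25 CG dinucleotides, against a median of 7 over all 32851 windows in the table. The window of Gabra5 held 13 CG dinucleotides and the first window of Gabrb1 held 25, and neither held a TATA box or GC box motif, an E-box motif (CACGTG) or the cyclic AMP response element (TGACGTCA). Gabra4 held 2 GC boxes, Gabra2 2, Gabrg3 1 and the first window of Gabrb2 1 together with a TATA box motif. Over all windows, 13.6% held a TATA box motif, 35.7% a GC box motif, 7.15% an E-box motif and 1.79% the cyclic AMP response element. Both strands were searched.

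The libraries held 54244288 to 68269607 deposited counts, and a sequenced fragment appears to add about 4 to a count. Csmd3, the targeted gene, codes for a very large protein of the cell membrane. Its deposited counts were 675, 653 and 543 in the Csmd3-/- libraries and 992, 765 and 867 in the WT libraries. It was lower in knockout by log2 fold change (-0.59, with SE 0.13 and adjusted p = 0.0233) but still counted in every library, and which exons those reads cover is not shown by gene counts. Defining markers of cortical excitatory neurons were present in every library, and their summed level was 5581 to 6222 CPM (counts scaled to a common library size) in knockout and 5653 to 6037 CPM in WT. The knockout libraries carried far more transcripts of the meninges, the membranes around the brain. All 15 meningeal markers rose, and their sum was 578 to 805 CPM in knockout against 23.6 to 31.1 CPM in WT. Choroid plexus RNA was uneven, since Ttr, its main marker, reached 131, 2262 and 25057 deposited counts in knockout libraries 1, 2 and 3, against 4, 0 and 0 in WT libraries 1, 2 and 3. Xist, the RNA of the inactive X chromosome, and transcripts of the Y chromosome were both well represented in several libraries, among them WT library 1 (10817 and 8976 deposited counts). Sex read from these transcripts, described with Gabra3, was tried as a covariate.

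Of the 7 subunit genes, 3 fell in the Csmd3 knockout cortex, Gabra5, Gabrb1 and Gabra3, and none rose. Over all 19844 genes tested, 7.74% were called, 2.53% lower and 5.21% higher. Gabra5 was at 0.444 of its WT level, Gabrb1 at 0.56 and Gabra3 at 0.74. Gabra2, Gabra4, Gabrb2 and Gabrg3 did not pass, with folds of 0.774 to 0.855. The median log2 fold change of the 7 was -0.37, against 0.002 over all genes tested (without WT library 1, -0.20 against -0.007), and all 7 values were below 0, as were 49.7% of all genes tested. The 7 were chosen with earlier results of these data known, so the shares over all genes are given for scale and test nothing. All 7 passed the filter on low counts. The groups did not overlap for 3 of the 7, all lower in knockout, against 29.1% of all genes tested in either direction and 13.5% lower. The count of 3 became 1 without any 1 of the knockout libraries and 2 without WT library 2. Fewer of all genes tested were then called lower as well, 0.665% to 0.907% without 1 knockout library and 1.10% without WT library 2. Without both knockout libraries 2 and 3, those richest in choroid plexus RNA, the median of the 7 was -0.44. With sex as a covariate, described with Gabra3, it was -0.45. Both of these fits rest on 1 knockout library each, so no count is given for them. Since this is bulk tissue, fewer cells of a type and less RNA per cell cannot be told apart.

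**Figure D1:**
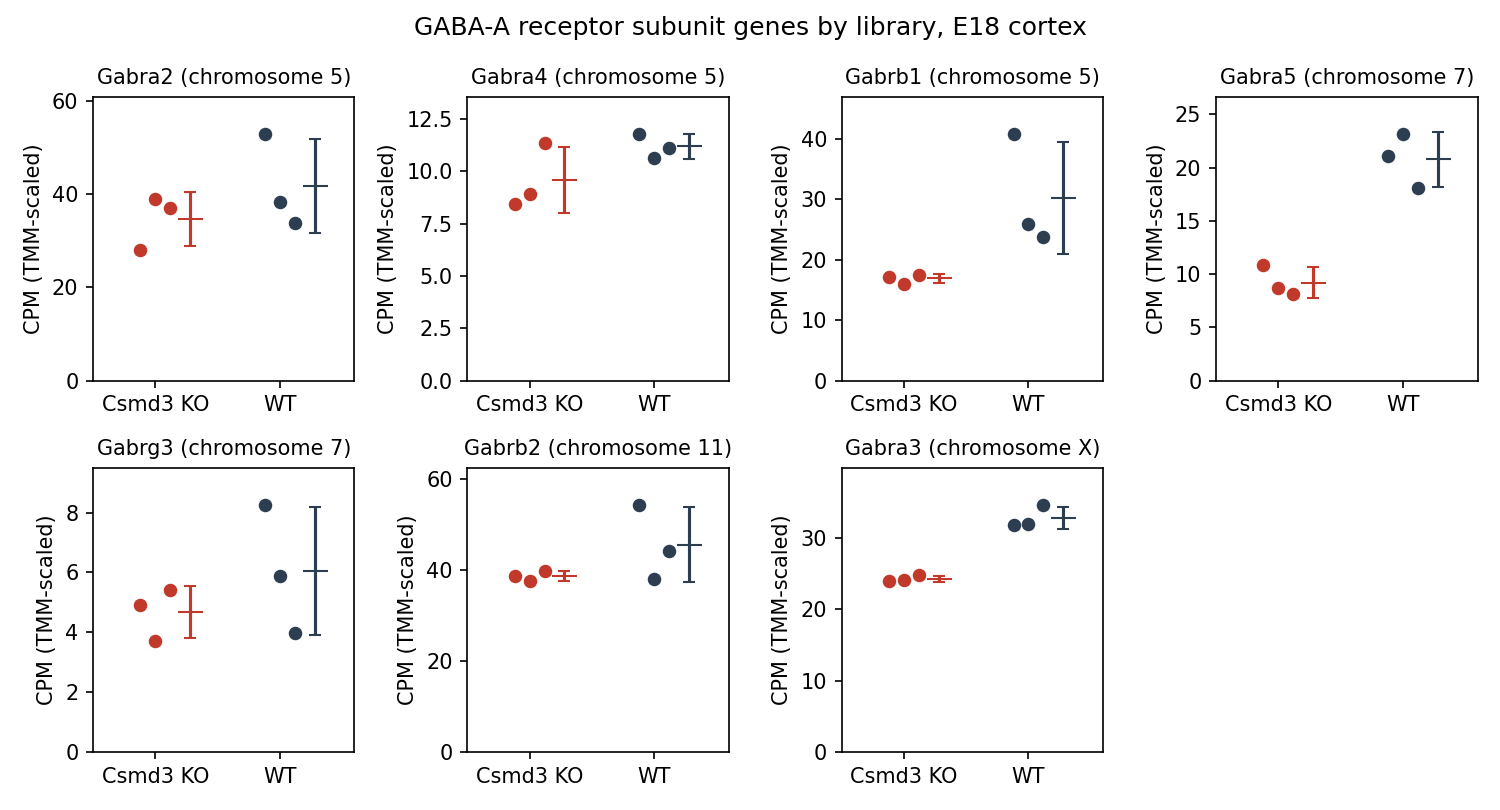
TMM-scaled CPM of each subunit gene (vertical axes, from 0) in the 3 Csmd3 knockout and the 3 WT libraries, with bars for the mean and SD. Gabra5, Gabrb1 and Gabra3 have knockout libraries that all lie below the WT libraries, while the groups of the other 4 genes overlap.

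Among the alpha subunits, Gabra5 had the lowest p of the 7. It forms receptors that sit mainly outside synapses and is best known from the hippocampus and deep cortical neurons. Its scaled level was 10.9, 8.68 and 8.10 CPM in the knockout libraries, against 21.1, 23.2 and 18.1 CPM in the WT libraries. Every knockout library lay below every WT library, and the highest knockout value was well short of the lowest WT value. The means were 9.21 ± 1.45 CPM in knockout and 20.8 ± 2.59 CPM in WT (SD, n = 3 each), a log2 fold change of -1.17 (SE 0.15, adjusted p = 0.00192). Its p ranked 221 among the 19844 genes. The deposited counts summed to 1744 in knockout and 3639 in WT, or about 436 and 910 fragments. The call held with any single library left out (adjusted p at most 0.0156), with log2 fold changes of -1.31 to -1.08. With sex as a covariate, knockout library 2 alone is compared with the WT libraries, and the log2 fold change was -1.26. It was -0.93, and the call was lost, with knockout libraries 2 and 3 both left out, which leaves 1 knockout library. Exons of Gabra5 share 148 bases, 4.98% of their length, with Gm9962, an antisense gene, and strand handling is not given, so reads there cannot be assigned.

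Gabra3, the alpha subunit gene on chromosome X, changed less but with little spread. It had 24.0, 24.1 and 24.7 CPM in the knockout libraries and 31.8, 31.9 and 34.6 CPM in the WT libraries. The groups did not overlap, and the knockout libraries were nearly alike. The means were 24.3 ± 0.410 CPM in knockout and 32.8 ± 1.59 CPM in WT (SD, n = 3 each), a log2 fold change of -0.43 (SE 0.09, adjusted p = 0.0187). The call was lost without knockout library 1 (adjusted p = 0.0804), 2 (0.0814) or 3 (0.0774), while the fold change stayed between -0.47 and -0.39 with any single library left out. Xist exceeded the 4 Y-linked genes counted in knockout library 2 and in all WT libraries, and was below them in knockout libraries 1 and 3. Gabra3 was at 24.1 CPM in knockout library 2, within the narrow range of the other knockout libraries. This is 1 library, with 123157 deposited counts of Xist and 2433 of the Y-linked genes. It cannot show whether sex plays a part in the level of Gabra3. With sex read from these transcripts as a covariate, knockout library 2 alone is compared with the WT libraries. The log2 fold change of Gabra3 was then -0.45 and did not pass.

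Gabra2, the alpha subunit of many forebrain synapses, had the highest mean CPM of the 4 alpha genes in both groups, but not the highest level per length. In WT library 3 Gabra3 was higher, at 34.6 CPM. Gabra2 had 27.97, 39.0 and 36.9 CPM in the knockout libraries, against 52.9, 38.3 and 33.7 CPM in the WT libraries. The groups overlapped, and WT library 1 stood above all others. Its log2 fold change of -0.27 did not pass (SE 0.19, adjusted p = 0.483) and had a 95% interval of -0.64 to 0.11, and it was -0.07 without WT library 1 and -0.13 without knockout library 1. Gabra4, a subunit of receptors outside synapses in thalamus and hippocampus that becomes more abundant after birth, had 8.44, 8.91 and 11.4 CPM in knockout and 11.8, 10.7 and 11.1 CPM in WT. Knockout library 3 reached the WT range, and the log2 fold change of -0.23 (SE 0.15, adjusted p = 0.428) had a 95% interval of -0.51 to 0.06. It was -0.14 without knockout library 1 and -0.36 without knockout library 3.

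The pair of beta subunits, which line the GABA binding site together with an alpha subunit, differed in their calls. Gabrb1 had 17.2, 16.1 and 17.6 CPM in the knockout libraries, against 40.9, 26.0 and 23.8 CPM in the WT libraries. The groups did not overlap, and WT library 1 was far above the other WT libraries. The means were 16.9 ± 0.777 CPM in knockout and 30.2 ± 9.31 CPM in WT (SD, n = 3 each), a log2 fold change of -0.84 (SE 0.19, adjusted p = 0.035). Without WT library 1 the fold change was -0.57 and still passed (adjusted p = 0.0378). The call was lost without knockout library 1 (0.112), 2 (0.134) or 3 (0.114) or WT library 2 (0.0625), while the fold change lay between -0.98 and -0.57 with any single library left out. With sex as a covariate, where knockout library 2 alone is compared with the WT libraries, it was -0.91 and did not pass.

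Gabrb2 had 38.8, 37.7 and 39.8 CPM in knockout and 54.4, 38.1 and 44.3 CPM in WT. The knockout libraries were close together and the WT libraries spread widely, with WT library 2 inside the knockout range. Its log2 fold change of -0.24 did not pass (SE 0.12, adjusted p = 0.308), with a 95% interval of -0.48 to 0.01, and it was -0.10 without WT library 1. Gabrg3, a gamma subunit gene with a very long locus and the lowest counts of the 7, had 4.92, 3.71 and 5.41 CPM in knockout and 8.26, 5.89 and 3.98 CPM in WT. The groups overlapped, and the log2 fold change of -0.37 (SE 0.27, adjusted p = 0.48) had a 95% interval of -0.89 to 0.15. It was -0.09 without WT library 1, -0.60 without WT library 3 and -0.22 without knockout library 2. It rested on 873 deposited counts in knockout and 1063 in WT.

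Whether subunits of a class moved by different amounts was tested on the log2 ratio of their levels within each library, for 7 pairs. The knockout minus WT difference of the log2 ratio of Gabra5 was -0.74 to Gabra3 (SE 0.20), -0.94 to Gabra4 (SE 0.28) and -0.92 to Gabra2 (SE 0.32). In each of these 3 ratios the knockout libraries all lay below the WT libraries. The ratio of Gabrb1 to Gabrb2 also had groups apart, at -1.19 ± 0.03 in knockout and -0.62 ± 0.25 in WT (SD, n = 3 each). The exact two-sided permutation p was 0.10 for these 4 pairs, the smallest that 3 against 3 libraries allow, and 0.175 when adjusted over the 7 pairs, so none passed. The ratios of Gabra3 to Gabra4 and Gabra2 and of Gabra4 to Gabra2 overlapped between groups, with knockout minus WT differences of -0.20 (SE 0.13), -0.18 (SE 0.27) and 0.02 (SE 0.21).

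Levels of different genes were compared per kilobase of exon, as CPM per kb of the union of annotated exons. In knockout the order was Gabra3 (6.18 ± 0.105 CPM per kb), Gabrb2 (6.09 ± 0.17), Gabra2 (4.53 ± 0.766), Gabra5 (3.10 ± 0.489), Gabra4 (1.58 ± 0.26), Gabrb1 (1.22 ± 0.0561) and Gabrg3 (0.392 ± 0.0732). In WT it was Gabra3 (8.35 ± 0.406 CPM per kb), Gabrb2 (7.17 ± 1.29), Gabra5 (6.99 ± 0.87), Gabra2 (5.45 ± 1.31), Gabrb1 (2.19 ± 0.673), Gabra4 (1.84 ± 0.0961) and Gabrg3 (0.507 ± 0.18), all SD over 3 libraries. Gabra5 stood below Gabra2 in knockout and above it in WT, and Gabrb1 likewise stood below Gabra4 in knockout and above it in WT. In knockout only the top pair, Gabra3 and Gabrb2, overlapped among neighbours in the order. In WT all neighbours overlapped except Gabra2 with Gabrb1 and Gabra4 with Gabrg3. The order depends on the length used: per kb of the longest transcript, Gabrb2 came first, with 9.72 CPM per kb in knockout and 11.4 in WT, and Gabrb1 stood below Gabra4 in both groups (1.23 and 2.33 CPM per kb in knockout, 2.20 and 2.73 in WT).

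Summed over the 4 alpha genes, the level was 14.8, 15.6 and 15.7 CPM per kb in the knockout libraries, against 24.1, 22.7 and 21.1 in the WT libraries. The knockout libraries all lay below the WT libraries. Gabra5 supplied 24.7%, 18.7% and 17.3% of that sum in the knockout libraries and 29.5%, 34.4% and 28.7% in the WT libraries. Its share was thus smaller in every knockout library. By this length, the union of exons, Gabra3 held the largest share in all 6 libraries, by the least in WT library 2 (35.9%). The order of Gabra3 and Gabra2 within a library depends on the length used, and no shares were formed per kb of the longest transcript. The share of Gabra2 was 29.4% ± 4.14 in knockout and 23.9% ± 4.26 in WT, and these groups overlapped. No test was made on the shares, which add to a fixed total.

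**Figure D2:**
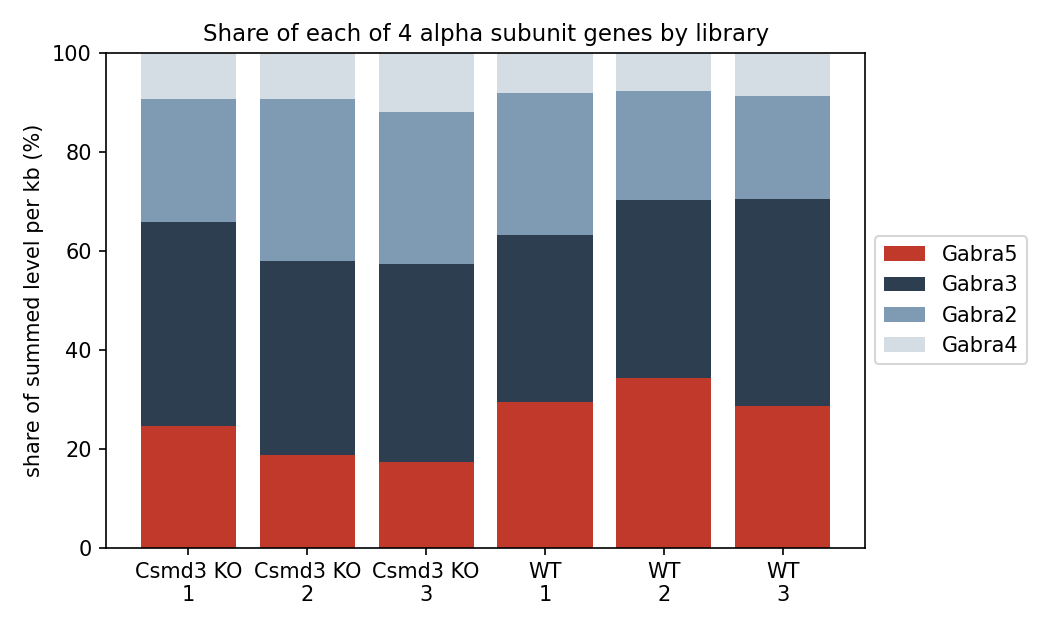
Share of each of 4 alpha subunit genes in their summed level per kb of exon (vertical axis, percent), 1 bar per library. Gabra5 took 17.3% to 24.7% in the Csmd3 knockout libraries and 28.7% to 34.4% in the WT libraries.

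By chromosomal cluster, calls were mixed within clusters. On chromosome 5, Gabrb1 fell and Gabra2 and Gabra4 did not pass. Gabrb1 and Gabra4 start head to head, though the windows printed above do not overlap, and the log2 ratio of Gabrb1 to Gabra4 was 0.83 ± 0.20 in knockout and 1.39 ± 0.36 in WT (SD, n = 3 each). This ratio was formed after the values were seen and was not tested, although its groups did not overlap. On chromosome 7, Gabra5 fell and Gabrg3 did not pass. On chromosome 11 Gabrb2 did not pass, and on chromosome X Gabra3 fell and the low-abundance genes Gabre and Gabrq did not pass.

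Within 1 Mb of the cluster ends, 53 protein-coding genes that are no GABA-A subunit were tested, with a median log2 fold change of 0.08. Of these 1 fell and 2 rose, against 2.53% lower and 5.21% higher over all genes tested. None of the 20 tested around the clusters on chromosomes 5, 7 and 11 passed, with medians of 0.11, 0.13 and 0.26. The 3 that passed were on chromosome X: Pnck, a calmodulin-dependent kinase gene (log2 fold change -0.51, SE 0.10, adjusted p = 0.0131), Bgn, a matrix proteoglycan gene (2.35, SE 0.15, adjusted p = 3.62e-05), and Zfp185 (2.19, SE 0.45, adjusted p = 0.018).

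**Figure D3:**
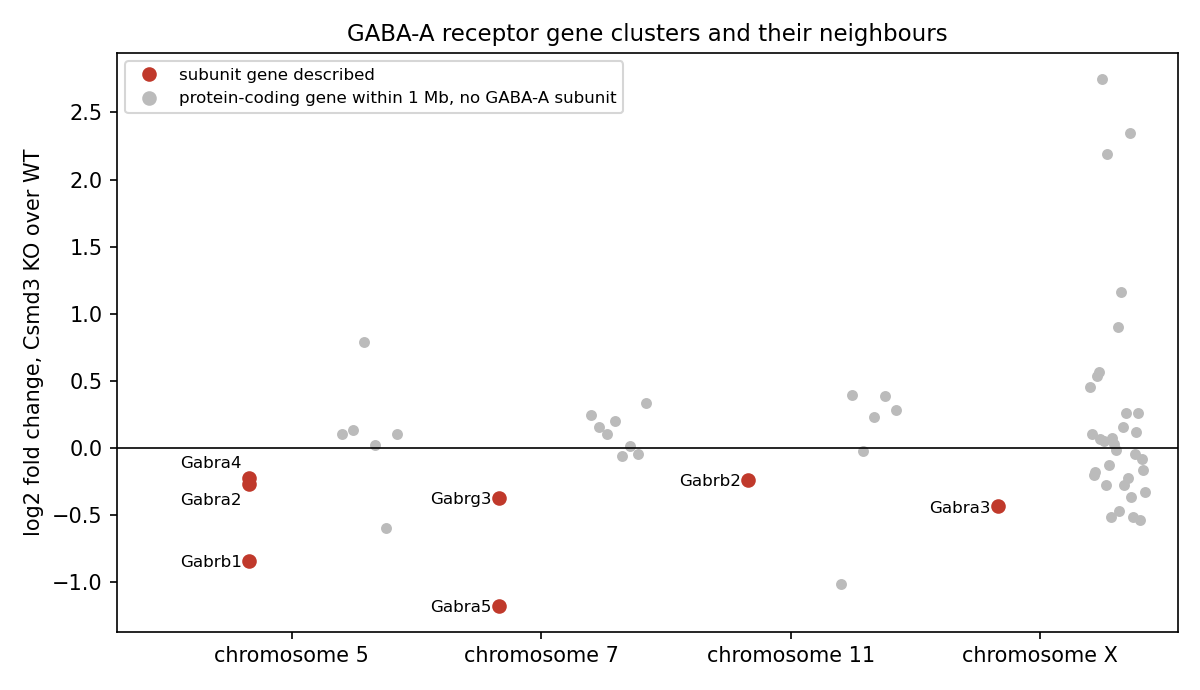
Log2 fold change of Csmd3 knockout over WT (vertical axis) for the 7 subunit genes (red) and the tested protein-coding genes within 1 Mb that are no GABA-A subunit (grey), by chromosome. The red points all lie below 0, from -1.17 for Gabra5 to -0.23 for Gabra4, while the grey points lie on both sides of it. Other tested subunit genes of these clusters are not drawn and lay on both sides of 0, such as Gabrg1 (-0.89) and Gabre (0.45).

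Some subunit genes outside the 7 were also measured. Gabrd, of receptors outside synapses, did not pass (-0.20, SE 0.21, adjusted p = 0.658). Gabrg1 was at 0.682 ± 0.246 CPM in knockout and 1.26 ± 0.374 CPM in WT (SD, n = 3 each) and did not pass (-0.89, SE 0.40, adjusted p = 0.227). Gabre (0.45, SE 0.42), Gabrq (0.35, SE 0.63) and Gabrr2 (0.58, SE 0.98) had positive values that did not pass (adjusted p at least 0.607) and means under 1 CPM in both groups. Gabrp, Gabrr1 and Gabrr3 had a count of 0 in all 6 libraries, and Gabra6, known from cerebellar granule cells, had 9 deposited counts in knockout library 1 and 0 elsewhere.

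Genes that assemble, transport and anchor the receptor were mostly without a call, as were most of all genes tested (2.53% lower, 5.21% higher). Of 30 tested, 1 rose, none fell, and the median was -0.09. The 1 was Nlgn2, the neuroligin of inhibitory synapses, at 407 ± 15.9 CPM in knockout and 334 ± 24.3 CPM in WT (0.28, SE 0.07, adjusted p = 0.0459). Gphn, the gephyrin scaffold that clusters receptors at synapses, was at 36.6 ± 1.75 CPM in knockout and 38.7 ± 2.87 CPM in WT (-0.08, SE 0.09, adjusted p = 0.687). Rdx, the radixin that anchors receptors with the Gabra5 subunit, was at 87.4 ± 3.551 CPM in knockout and 76.3 ± 4.70 CPM in WT and did not pass (0.20, SE 0.08, adjusted p = 0.165). Rdx was chosen after its values were seen.

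On the metabotropic side, Gabbr2, the signalling subunit of the GABA-B receptor, fell to 39.8 ± 3.54 CPM in knockout, against 63.1 ± 14.4 CPM in WT (-0.66, SE 0.16, adjusted p = 0.0456). Its partner Gabbr1 was at 318 ± 8.78 CPM in knockout and 351 ± 23.8 CPM in WT and did not pass (-0.14, SE 0.07, adjusted p = 0.271). Of the 6 genes of this list 1 fell and 1 rose, the auxiliary subunit gene Kctd12b (1.16, SE 0.22, adjusted p = 0.0134), and the median was -0.22. Over all genes tested, 2.53% were lower and 5.21% higher. Among 8 genes of GABA synthesis, packaging and uptake, the transporter gene Slc6a11 fell (-0.93, SE 0.12, adjusted p = 0.00216) and the meningeal transporter gene Slc6a13 rose. The synthesis genes Gad1 (-0.32, SE 0.10, adjusted p = 0.0937) and Gad2 (-0.12, SE 0.14, adjusted p = 0.683) and the vesicular transporter gene Slc32a1 (-0.37, SE 0.13, adjusted p = 0.122) did not pass.

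Chloride transport, which sets whether GABA excites or inhibits, was tested through 12 genes. Of these 1 rose and none fell (median 0.08), against 5.21% higher and 2.53% lower over all genes tested. The riser was Wnk1, a kinase that regulates chloride cotransporters, at 203 ± 10.3 CPM in knockout and 153 ± 12.3 CPM in WT (0.41, SE 0.08, adjusted p = 0.0147). Slc12a2, the importer of immature neurons, was at 73.0 ± 3.44 CPM in knockout and 70.6 ± 8.08 CPM in WT (0.05, SE 0.09, adjusted p = 0.823). Slc12a5, the exporter that increases as neurons mature, was at 17.1 ± 3.82 CPM in knockout and 26.2 ± 6.19 CPM in WT, with overlapping groups (-0.62, SE 0.21, adjusted p = 0.132).

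Markers of several cell types also changed between the groups, where 2.53% of all genes tested were called lower and 5.21% higher. Of 20 markers of cortical excitatory neurons 2 fell and none rose, with a median of 0.03. Of 20 pan-neuronal genes 7 fell and none rose (median -0.26), among them Thy1 (-0.78, SE 0.15) and Syt1 (-0.47, SE 0.09), with a summed level of 9072 to 10560 CPM in knockout and 11710 to 13570 CPM in WT. Of 20 interneuron genes 4 fell and none rose, including Npy (-0.91, SE 0.11) and Sst (-0.84, SE 0.19), with sums of 596 to 716 CPM in knockout and 723 to 880 CPM in WT. Among 8 genes of oligodendrocyte precursors 3 fell, Olig1 (-1.40, SE 0.21), Olig2 (-1.26, SE 0.18) and Gpr17 (-0.79, SE 0.17), while Pdgfra rose (0.76, SE 0.11). Of 15 radial glia and intermediate progenitor genes 7 rose, among them Mki67 (0.72, SE 0.08), with sums of 1876 to 1982 CPM in knockout and 1516 to 1692 CPM in WT. In the other lists, 10 of 15 endothelial and mural genes, 11 of 14 microglial and macrophage genes and 2 of 7 choroid plexus genes tested rose and none fell, 1 of 9 astrocyte genes rose, 1 of 15 striatal genes fell and 3 rose, 1 of 5 hippocampal genes tested rose, and none of 9 erythroid or 4 thalamic genes tested passed. The thalamic markers Shox2 and Foxb1 were at 0 in all libraries, and Gbx2 had 8 deposited counts in WT library 2 and 0 elsewhere. The 4 thalamic genes tested were counted in every library, with a median log2 fold change of 0.27. Their sums were 41.7 to 47.5 CPM in knockout and 34.8 to 43.2 CPM in WT.

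How far the subunit genes moved relative to neuronal transcripts was measured by scaling the libraries on the 20 pan-neuronal genes. Some of these were uneven within a group. Mapt was at 1384, 1294 and 321 CPM in knockout libraries 1, 2 and 3, and Map2 at 1163, 886 and 515 CPM in WT libraries 1, 2 and 3. Scaling without them was not tried. Scaling on all 20 shifted the median of all genes to 0.31 on the log2 scale, and 0.595% of all genes tested were called lower and 23.6% higher. Gabra5 remained lower (-0.87, SE 0.16, adjusted p = 0.00273), as did Gabrb1 (-0.51, SE 0.17, adjusted p = 0.049). Gabra3 was at -0.13 (SE 0.14, adjusted p = 0.519) and did not pass, and Gabra2, Gabra4 and Gabrb2 turned to slightly positive values of 0.06, 0.09 and 0.08, while Gabrg3 was at -0.03. The part of the interneuron, precursor, progenitor and meningeal transcripts in these values was not tested.

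**Figure D4:**
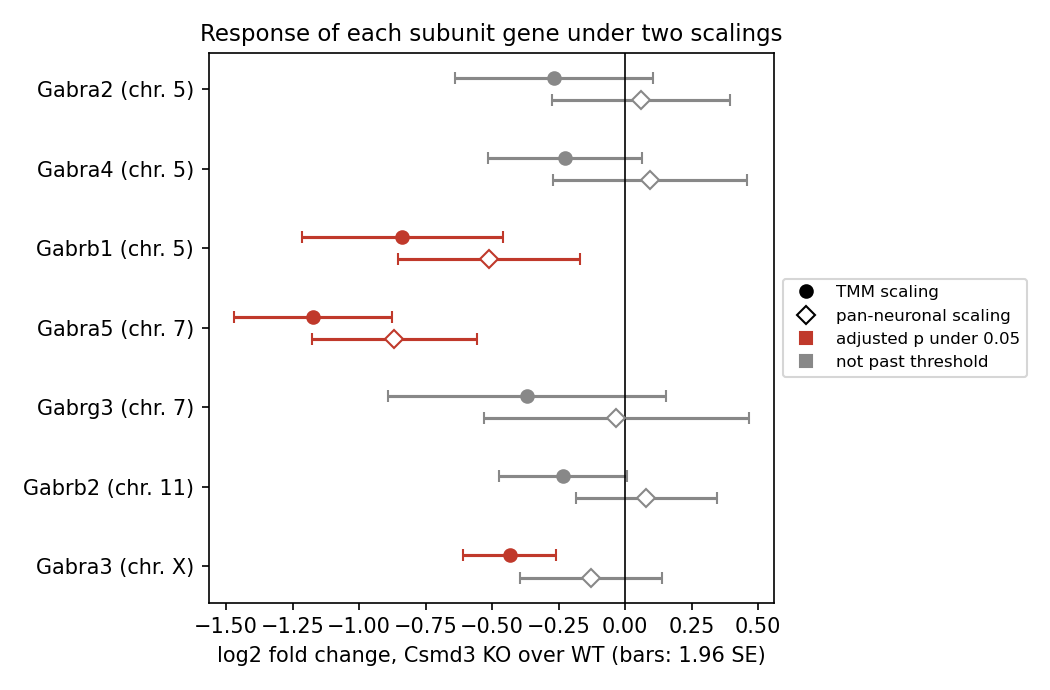
Log2 fold change of Csmd3 knockout over WT (horizontal axis) with 1.96 SE for each subunit gene under TMM scaling (circles) and under scaling on pan-neuronal genes (diamonds), red where the adjusted p was under 0.05. Gabra5 and Gabrb1 are red under both scalings and Gabra3 only under TMM.

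The genes whose values followed each subunit gene most closely over the 6 libraries were found by the smallest root mean square difference of centred log2 CPM among 10450 protein-coding genes. For Gabra5, Olig2, a transcription factor gene of the oligodendrocyte lineage, is given (0.14), against a median difference of 0.62 over all genes searched. For Gabrb1 they were Plppr4 (0.08) and Sprn (0.11), and for Gabra3 they were Ntsr1, a neurotensin receptor gene (0.05), and Mctp1 (0.05). These 5 genes fell as well, with log2 fold changes of -1.26, -0.86, -0.84, -0.41 and -0.45 in that order. For the subunit genes that did not pass, the nearest were Nsg1 and Camk4 for Gabra2, Spryd7 and Grasp for Gabra4, Tnr and Erbb4 for Gabrb2, and Prkcb and Hs6st3 for Gabrg3, none of which passed. With 6 libraries in 2 groups, nearness mostly means a like difference between the genotypes.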

How the data were processed

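RNA of E18 cortex was sequenced in 3 Csmd3-/- and 3 WT libraries. The deposited table holds whole-number gene counts, treated as estimated counts because low values pile up at 4, 8 and 12 (in WT library 1, 1298 genes at 4 against 492 at 3 and 318 at 5); no rounding was needed. Tools listed in the submitters' processing notes, without roles, are HISAT2 2.0.5, StringTie 1.3.4, Trim Galore 0.4.4 and FastQC 0.11.9, with build mm10; the sources used here do not give the counting program, annotation or strand handling. Of 55401 rows, 55141 matched a GENCODE M21 name, and unmatched rows held at most 0.0238% of a library's counts.

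Genes kept by filterByExpr were scaled by TMM and tested in edgeR 4.0.16 (glmQLFit, robust, and glmQLFTest; R 4.3.3), with Benjamini-Hochberg adjustment over all 19844 genes and a threshold of 0.05; adjusted p-values without another tool named come from this test. The SE is the size of the log2 fold change over the square root of F. Intervals called 95% are 1.96 SE, from the normal distribution, and are narrower than the F-test would give. The fit was checked on simulated counts. Ratios used log2 CPM with a prior count of 2. The members and gene lists were chosen with earlier results of these data known. Named were the members, other subunits, up to 4 called genes per list, key GABA genes, called neighbours within 1 Mb and the 2 nearest patterns per member with mean log2 CPM of at least 3; some genes under this rule are not reported here. Alternatives used DESeq2 1.42.0 and limma 3.58.1, other scalings and filters, a replicate block, GC and length trends (lowess span 0.3), a sex covariate and libraries left out.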

Additional observations from a re-analysis of the deposited data

How the results depend on the processing

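The fold changes of Gabra5, Gabrb1, Gabra3 and Gabrg3 stayed below 0 under all 20 alternatives. Those of Gabra2, Gabra4 and Gabrb2 did so except under scaling on pan-neuronal genes (0.0598, 0.0941 and 0.0804), none of them called under any alternative. The count of 3 lower members became 1 at a threshold of 0.01 and 1 to 3 with single libraries left out. It stayed at 3 without WT library 1 or WT library 3. The cause of the drop with other libraries left out was not tested. With the sex covariate, the WT libraries and knockout library 2 were all of 1 class, so the fold changes rest on 1 knockout library. The same holds without knockout libraries 2 and 3, and no count is given for these fits. No member was called higher under any alternative. The replicate block gave 2 lower members, with Gabra3 not past the threshold (adjusted p = 0.0547); with GC and length trends removed as well it gave 3. Residuals of same-numbered libraries correlated at 0.08, -0.0001 and -0.03, within the range of -0.13 to 0.11 for libraries of unlike number. With 3 libraries per group this cannot show whether the numbers pair the libraries, which the labels do not say. RLE, upper-quartile, DESeq2, limma-voom, other filters, counts divided by 4, removal of GC and length trends and a fit that was not robust each gave 3. Gabrg3 had the lowest depth of the 7, with about 218 fragments in knockout and 266 in WT.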

Other observations

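Other receptors built on the same plan as the GABA-A receptor are the glycine, nicotinic and serotonin-gated channels. Their genes were mostly without a call, as were most of all genes tested (2.53% lower, 5.21% higher). Of 23 subunit genes 10 passed the filter, 1 fell, none rose, and the median log2 fold change was -0.05. The 1 was Htr3a, a serotonin receptor channel of a class of interneurons, at 8.02 ± 0.387 CPM in knockout and 12.9 ± 0.992 CPM in WT (SD, n = 3 each; log2 fold change -0.68, SE 0.13, adjusted p = 0.0122). The embryonic glycine receptor subunit gene Glra2, chosen after its values were seen, was at 50.6 ± 1.89 CPM in knockout and 55.3 ± 2.24 CPM in WT and did not pass (-0.13, SE 0.08, adjusted p = 0.364).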
